A study of Mus musculus with 6 samples.

Results

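The T cell receptor gene segments described here are the 226 rows of the deposited expression table whose gene biotype starts with TR_ and is not a pseudogene, of 54532 rows in all. They hold 144 variable (V), 4 diversity (D), 70 joining (J) and 8 constant (C) segments. The alpha locus (Tra) has 160 of them, the beta locus (Trb) 39, the gamma locus (Trg, mostly under older Tcrg- names in the table) 15 and the delta locus (Trd) 10, and 2 further V genes with Riken names lie in the alpha region.

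A T cell receptor is a pair of chains, alpha with beta or gamma with delta, and it reaches the cell surface together with the CD3 proteins. Each chain is encoded by a V segment joined by recombination to a J segment (with a D segment between them in beta and delta chains) and spliced to a C segment, so that a C segment is shared by all receptors of its chain while the V segment differs between T cell clones. In mouse gut, alpha beta T cells are accompanied by gamma delta T cells, many of which lie within the epithelium. Some gamma delta cells of barrier tissues are made mainly around birth and carry receptors of little diversity, among them cells that pair Trdv4 with the gamma V6 segment and produce interleukin 17.

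The study set the colon of interleukin 10 deficient mice against that of wild type mice, in a design of 3 libraries labelled IL10-KO (genotype IL10-/-, with the allele not described) and 3 labelled WT. Interleukin 10 is a cytokine that dampens inflammation, and its loss in mice is a widely used colitis model. All libraries came from whole colon of C57BL/6 mice aged 56 days. RNA was total RNA of the tissue, so a change in the number of T cells and one in receptor RNA per T cell cannot be told apart. Nothing in the labels says whether each library was a mouse of its own, and p-values then measure the spread between these libraries, which may be technical.

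Levels are FPKM as deposited by the authors, that is, fragments per segment length and a library size. Whole reads could be recovered from them, 14235679 to 14651559 per library labelled IL10-KO and 13107941 to 15797928 per library labelled WT, and read numbers below are these recovered reads. The library size that the FPKM imply was not the total of recovered reads. It was 0.885, 1.07 and 1.15 times that total in IL10-KO libraries 1 to 3, and 1.23, 0.836 and 0.940 times in WT libraries 1 to 3. Il10 RNA itself reached 13.8, 10.6 and 14.5 FPKM in IL10-KO libraries 1 to 3, against 0.757, 0.173 and 0.177 FPKM in WT libraries 1 to 3, so the level of the targeted gene does not check the labels and every direction below rests on them. IL10-KO libraries resembled each other more than WT libraries did. Pearson's r of log2(FPKM + 1) across genes, which are not independent replicates, was 0.935 to 0.961 within IL10-KO and 0.795 to 0.864 within WT, and 0.747 to 0.910 between the labels. Summed over 5 smooth muscle markers, levels were 148 to 885 FPKM in libraries labelled IL10-KO and 1080 to 7829 FPKM in those labelled WT. Summed over 6 B cell markers, IL10-KO library 1 had 62.7 FPKM and IL10-KO libraries 2 and 3 had 4.13 and 5.37 FPKM, against 52.1 FPKM in WT library 1 and 2.36 and 5.98 FPKM in WT libraries 2 and 3. WT library 3 also stood apart by its mitochondrial reads, 43.42% of its total (95% Wilson interval 43.39 to 43.44%), where the other 5 libraries had 8.61 to 22.0%. The part of these differences in the results below was not tested.

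Sequences of the delta V segments are shown first because the largest difference lay there. They are the last 90 bases of each segment, 5′ to 3′ on its own strand, from GENCODE M21 transcripts on GRCm38. Capitals mark a motif of TAT or TAC, then NNN, then TGT or TGC, which encodes a tyrosine and, after any codon, the conserved cysteine before the third complementarity determining region. Searched on the sense strand alone, the motif was found in the last 90 bases of 142 of 144 V segments. The gamma V6 segment, known as a partner of Trdv4, and the beta segment Trbv26, described below, follow them.
Trdv4: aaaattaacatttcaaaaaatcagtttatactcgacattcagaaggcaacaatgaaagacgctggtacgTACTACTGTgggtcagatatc
Trdv1: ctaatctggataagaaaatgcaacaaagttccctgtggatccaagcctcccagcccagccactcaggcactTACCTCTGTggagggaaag
Trdv2-1: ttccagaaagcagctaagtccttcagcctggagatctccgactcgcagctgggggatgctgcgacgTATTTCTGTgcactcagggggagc
Trdv2-2: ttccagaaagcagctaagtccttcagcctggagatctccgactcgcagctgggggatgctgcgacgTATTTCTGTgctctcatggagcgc
Trdv5: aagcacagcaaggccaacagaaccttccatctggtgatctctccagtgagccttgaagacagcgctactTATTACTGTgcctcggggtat
Tcrg-V6: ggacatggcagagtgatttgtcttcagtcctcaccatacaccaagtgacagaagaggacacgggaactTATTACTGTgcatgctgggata
Trbv26: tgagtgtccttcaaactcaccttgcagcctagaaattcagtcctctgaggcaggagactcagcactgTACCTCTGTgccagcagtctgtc

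The delta variable segment Trdv4 was read in every library labelled IL10-KO and in no library labelled WT, and it was the segment that passed the test across all genes. Trdv4 (ENSMUSG00000076867) lies on the plus strand of chromosome 14 at GRCm38 chr14:54074905-54075515 and has 444 bases of annotated exon. It had 35, 50 and 29 reads in IL10-KO libraries 1 to 3, against 0, 0 and 0 reads in WT libraries 1 to 3. As levels these were 6.25, 7.16 and 4.01 FPKM in libraries labelled IL10-KO, against 0 FPKM in each library labelled WT. The groups did not overlap. The mean of 5.80 ± 1.62 FPKM (SD, n = 3) was at least 35.9-fold higher than in the libraries labelled WT, where a floor of 3 reads over the group corresponds to 0.161 FPKM. This bound covers counting error only.

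On the log2(FPKM + 1) scale Trdv4 was higher by 2.74 (standard error 0.26, adjusted p = 0.0184, limma with Benjamini-Hochberg adjustment over 12668 genes). The exact two-sided permutation p was 0.1, the smallest that 3 libraries against 3 allow. The fit called 23 genes higher, 0.182% of the genes tested, and 0 lower, 0% of them; voom on the recovered reads called 15 higher and 2 lower. Trdv4 passed the filter on low values only through its level in the libraries labelled IL10-KO, so among tested genes it had to differ. Its adjusted p was above the threshold of 0.05 when a library was left out in 5 of the 6 cases, at 0.0786, 0.169 and 0.0657 without IL10-KO library 1, 2 or 3 and at 0.0615 and 0.0858 without WT library 1 or 3. The antisense gene Gm30275, with 2 reads in all, overlaps the span of Trdv4. No stretch of 50 bases of Trdv4, searched on both strands, occurs in a transcript of another annotated gene. If the counting ignored strand, reads over any shorter overlap with Gm30275 cannot be split.

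**Figure D1:**
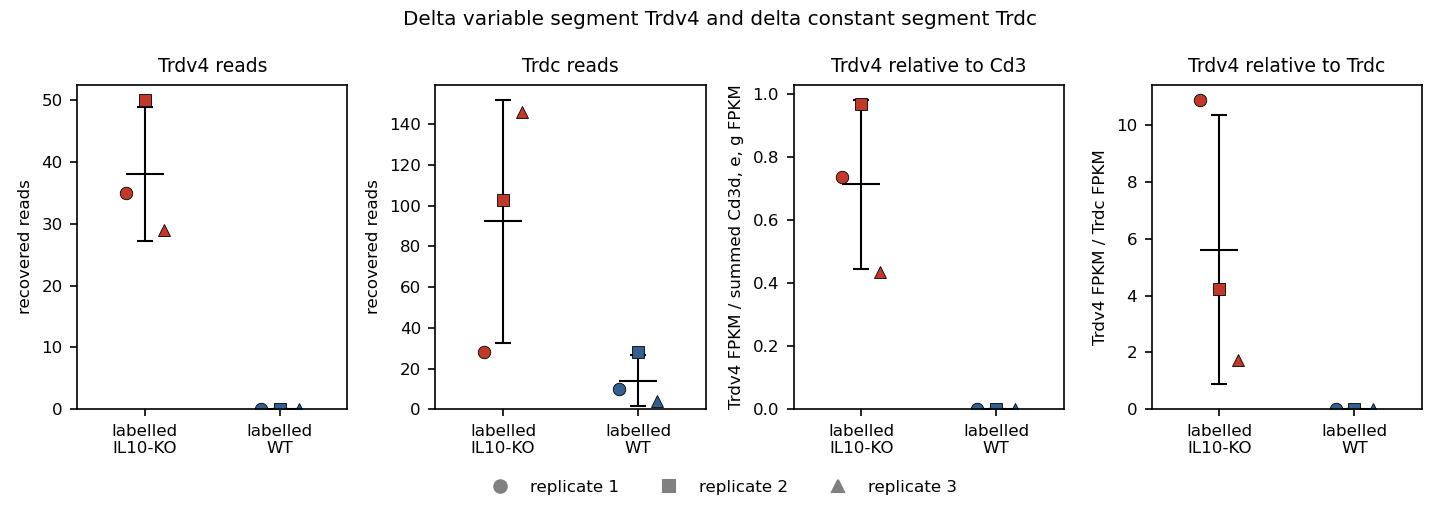
Trdv4 and the delta constant segment Trdc in the 3 libraries labelled IL10-KO and the 3 labelled WT, as recovered reads, as Trdv4 FPKM over the summed FPKM of Cd3d, Cd3e and Cd3g, and as Trdv4 FPKM over Trdc FPKM. Symbols are libraries, long bars means and error bars 1 SD, drawn down to 0 at most; Trdv4 is at 0 in all libraries labelled WT, and its ratio to Trdc is 10.9, 4.23 and 1.73 in IL10-KO libraries 1 to 3.

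The other delta segments were read little or not at all. Trdv2-2 had 1, 4 and 0 reads in the libraries labelled IL10-KO and 0 in those labelled WT. Trdv5, which lies in inverted orientation over the end of Trdc, had 3, 0 and 0 reads in the libraries labelled IL10-KO and 0 in those labelled WT, which cannot be split from Trdc reads if the counting ignored strand. Trdv1, Trdv2-1, both delta D segments and both delta J segments had 0 reads in every library. Of the 122 reads on delta V segments, 114 were thus on Trdv4. A further 10 alpha V segments carry a dv number in their names, since they can also be used by delta chains; 3 of these had a read, 3 reads in the libraries labelled IL10-KO and 2 in those labelled WT.

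The delta constant segment Trdc, part of every delta chain, was also higher in the libraries labelled IL10-KO, with its lowest value there close to the highest in WT. Trdc (ENSMUSG00000104876, GRCm38 chr14:54142851-54148868, plus strand, 3865 exon bases) had 28, 103 and 146 reads in IL10-KO libraries 1 to 3, against 10, 28 and 4 reads in WT libraries 1 to 3. In FPKM it was at 0.574, 1.69 and 2.32 in the libraries labelled IL10-KO, against 0.160, 0.549 and 0.0801 in those labelled WT. The groups did not overlap, although IL10-KO library 1 and WT library 2 nearly touched.

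The ratio of Trdc means was 5.81. With a mean of 0.896 FPKM, Trdc missed the filter and was not tested in the fit used for Trdv4. With the filter set at 10 recovered reads, its log2 difference was 0.95 (standard error 0.31, adjusted p = 0.454, limma), which did not pass. The exact two-sided permutation p was 0.1. IL10-KO library 1 and WT library 2, with 28 Trdc reads each, had 35 and 0 reads on Trdv4.

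Relative to its constant segment, Trdv4 was higher in the libraries labelled IL10-KO than the summed V segments of the other chains were relative to theirs. Its FPKM was 10.9, 4.23 and 1.73 times that of Trdc in IL10-KO libraries 1 to 3, against 0 in each WT library. The same ratio of summed V FPKM to summed C FPKM was 0.337, 0.189 and 0.110 for alpha in the libraries labelled IL10-KO, against 0.106, 0.228 and 0 in those labelled WT. For beta it was 0.0707, 0.353 and 0.156 in the libraries labelled IL10-KO, against 0.238, 0.177 and 0.0180 in those labelled WT. For gamma it was 0.0318, 0.278 and 0.0609 in the libraries labelled IL10-KO, against 0, 0.172 and 0.267 in those labelled WT. The Trdv4 ratio depends on the annotated length of Trdc, of which 6.68% of 50-base stretches also occur in other genes. These ratios are given as values, with no test.

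Summed over all segments, T cell receptor RNA was on average higher in the libraries labelled IL10-KO, and by locus the sums of the groups were apart at delta and overlapped at alpha, beta and gamma. Over all 226 segments there were 665, 921 and 1115 reads in IL10-KO libraries 1 to 3, against 711, 388 and 221 reads in WT libraries 1 to 3. Scaled as the authors scaled FPKM, this was 59.9 ± 7.93 RPM (reads per 1000000) in the libraries labelled IL10-KO and 30.2 ± 13.5 RPM in those labelled WT (SD, n = 3 each). The log2 ratio was 0.99, and the ranges did not overlap on this scaling. Per recovered read they overlapped: WT library 1 had 711 receptor reads of 13107941, against 665 of 14262740 in IL10-KO library 1. Of the 4021 reads, 3595 (89.4%) were on the 8 constant segments.

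By locus, scaled RPM were 8.68 ± 2.94 in the libraries labelled IL10-KO and 1.02 ± 0.97 in those labelled WT for delta, a log2 ratio of 3.09 (SD, n = 3 each). The gamma locus was at 12.6 ± 1.80 in IL10-KO and 7.003 ± 3.88 in WT, a log2 ratio of 0.84. The beta locus was at 26.9 ± 4.69 in IL10-KO and 14.9 ± 7.11 in WT, a log2 ratio of 0.85. None of these sums was tested.

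The alpha locus was at 11.7 ± 4.40 scaled RPM in IL10-KO and 7.23 ± 6.43 in WT (SD, n = 3 each). Its log2 ratio was 0.70, and 1.73 without WT library 1, which held 236 of the 328 alpha reads of its group. That of the delta locus was 4.22 without WT library 2. Per read outside the mitochondrial genome, the log2 ratios were 0.44 for alpha, 0.67 for beta, 0.80 for gamma and 3.21 for delta.

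**Figure D2:**
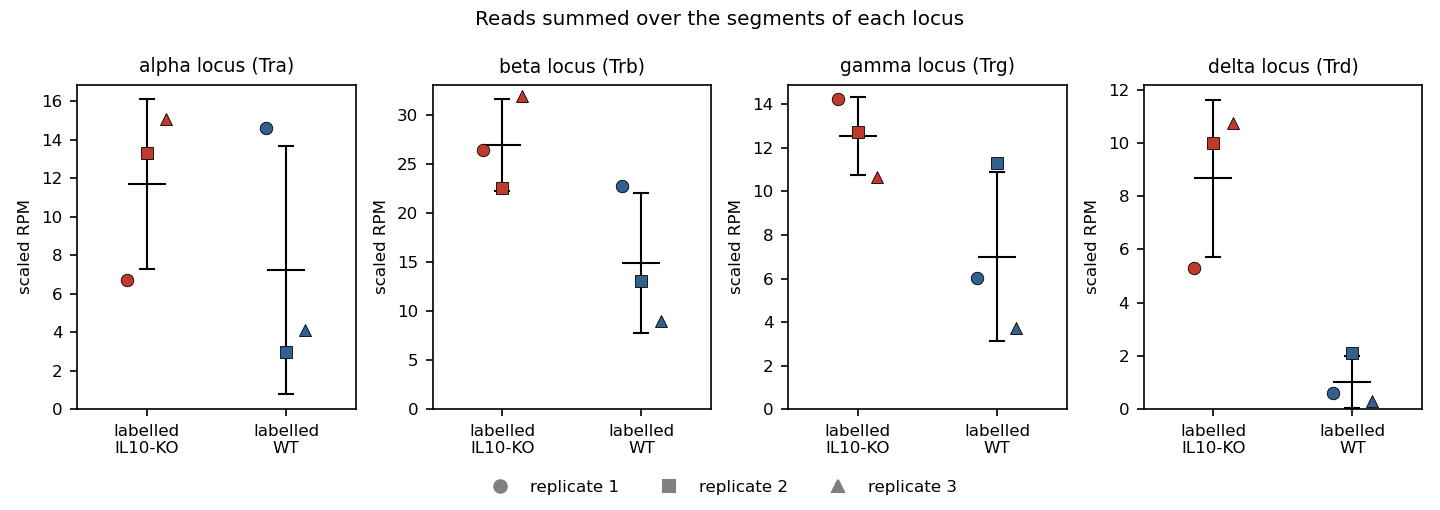
Recovered reads summed over the segments of each locus, in scaled RPM, in libraries labelled IL10-KO and WT; symbols are libraries, long bars means and error bars 1 SD. Alpha, beta and gamma overlap between the groups, and the 3 IL10-KO delta sums lie above the 3 WT ones.

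The division of receptor reads between gamma delta and alpha beta chains varied more among the libraries labelled WT than between the labels. Gamma and delta segments together took 37.1% (95% exact interval 33.5 to 40.9%), 38.8% (35.6 to 42.0%) and 31.3% (28.6 to 34.1%) of receptor reads in IL10-KO libraries 1 to 3. In WT libraries 1 to 3 they took 15.05% (12.5 to 17.9%), 45.6% (40.6 to 50.7%) and 23.5% (18.1 to 29.7%). The highest and the lowest shares were both in WT libraries.

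Delta segments alone took 14.3 ± 3.70% of receptor reads in IL10-KO and 3.48 ± 3.24% in WT (SD, n = 3 each). Per library these shares were 10.1% (95% exact interval 7.89 to 12.6%), 17.0% (14.7 to 19.6%) and 15.7% (13.6 to 17.97%) in IL10-KO libraries 1 to 3, against 1.41% (0.676 to 2.57%), 7.22% (4.85 to 10.3%) and 1.81% (0.495 to 4.57%) in WT libraries 1 to 3. The groups did not overlap, and the intervals, which cover counting error only, of IL10-KO library 1 and WT library 2 did.

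The constant segments, which carry most of the reads, were on average higher in the libraries labelled IL10-KO, and none passed the test. The 9 segments that passed the filter of a mean of 1 FPKM were 6 constant segments, Trdv4, Trbd1 and Trbj1-6. Of these 9, 8 had a positive log2 difference, against 54.1% of all genes tested, and their median was 0.81 against 0.04 over all genes tested. An unadjusted limma p under 0.05 was reached by 5 of them, and by 10.2% of all genes tested. These counts are a description, since Trdv4 and Trbd1 passed the filter through the libraries labelled IL10-KO alone. Over the other 7 segments the median was 0.74.

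Trbc2, a beta constant segment (ENSMUSG00000076498, GRCm38 chr6:41546730-41548352, plus strand), had the highest mean FPKM of the segments, at 26.0, 16.4 and 24.4 FPKM in IL10-KO libraries 1 to 3, against 17.9, 9.30 and 6.26 FPKM in WT libraries 1 to 3. Its log2 difference was 1.03 (standard error 0.40, adjusted p = 0.467, limma). Its neighbour Trbc1 (ENSMUSG00000076490, GRCm38 chr6:41538218-41539881, plus strand) was at 9.84, 10.02 and 16.1 FPKM in libraries labelled IL10-KO, against 10.01, 7.28 and 5.37 FPKM in those labelled WT, a log2 difference of 0.61 (standard error 0.31, adjusted p = 0.559). In both, WT library 1 lay within the IL10-KO range. Trbc2 was higher than Trbc1 in all 6 libraries, by a ratio of 2.64, 1.64 and 1.51 in IL10-KO and 1.79, 1.28 and 1.17 in WT.

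The beta pair is shown with its first 120 bases because these were identical between both segments, with 0 differences, so that a read from there fits either one. Over 676 aligned bases they shared 87.0%, and 41.1% of the 50-base stretches of Trbc1 and 44.0% of those of Trbc2 occur in another gene. How reads with several places were counted is not given in the sources used here, so the split between Trbc1 and Trbc2 is uncertain.
Trbc1: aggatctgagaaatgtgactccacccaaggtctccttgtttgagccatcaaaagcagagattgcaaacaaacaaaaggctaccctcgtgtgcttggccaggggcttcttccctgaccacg
Trbc2: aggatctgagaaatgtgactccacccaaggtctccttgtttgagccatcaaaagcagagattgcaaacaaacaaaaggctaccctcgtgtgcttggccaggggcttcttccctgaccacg

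Trac, the single alpha constant segment (ENSMUSG00000076928, GRCm38 chr14:54220521-54224206, plus strand), was at 6.19, 12.4 and 15.3 FPKM in IL10-KO libraries 1 to 3, against 14.8, 2.92 and 4.39 FPKM in WT libraries 1 to 3. The ranges overlapped widely: IL10-KO library 1 was low, near WT libraries 2 and 3, and WT library 1 was about as high as IL10-KO library 3. The means were 11.3 ± 4.68 FPKM in IL10-KO and 7.38 ± 6.50 FPKM in WT (SD, n = 3 each). The log2 difference was 0.74 (standard error 0.57, adjusted p = 0.709, limma). With weights per library it was -0.0085, so its sign depends on how libraries are weighted.

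The gamma constant segments Tcrg-C1 and Tcrg-C2 were apart between the groups, and Tcrg-C4 was not. Tcrg-C1 (ENSMUSG00000076749, GRCm38 chr13:19214103-19217024, plus strand) was at 4.54, 5.23 and 5.44 FPKM in IL10-KO libraries 1 to 3, against 2.41, 3.52 and 1.67 FPKM in WT libraries 1 to 3. Tcrg-C2 (ENSMUSG00000076752, GRCm38 chr13:19304649-19307551, minus strand) was at 7.89, 5.70 and 5.03 FPKM in libraries labelled IL10-KO, against 3.19, 4.39 and 1.86 FPKM in those labelled WT. The log2 differences were 0.81 (standard error 0.25, adjusted p = 0.372) for Tcrg-C1 and 0.83 (standard error 0.30, adjusted p = 0.453) for Tcrg-C2, by limma, and each had an exact two-sided permutation p of 0.1. Tcrg-C1 passed with weights per library (adjusted p = 0.0467, limma) and in none of the other 19 alternatives. Weights per library called 331 genes in all, against 23 in the fit used for Trdv4.

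Tcrg-C4 (ENSMUSG00000076757, GRCm38 chr13:19344558-19352756, plus strand) was at 2.41, 1.23 and 0.747 FPKM in libraries labelled IL10-KO, against 0.818, 3.23 and 0 FPKM in those labelled WT. Its log2 difference was 0.26 (standard error 0.55, adjusted p = 0.908, limma), -0.00094 without IL10-KO library 1 and -0.23 without WT library 3. WT library 2 held 42 of the 55 reads of its group. Tcrg-C3 had 3, 0 and 0 reads in the libraries labelled IL10-KO and 0 reads in those labelled WT.

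The first 120 bases of the 3 most alike gamma constant segments are shown because their reads can be told apart at few positions there. Capitals mark the positions at which any of the 3 differs. Tcrg-C1 shared 96.1% of 909 aligned bases with Tcrg-C2 and 97.2% of 647 with Tcrg-C3, but 72.4% of 896 with Tcrg-C4. Of the 50-base stretches of Tcrg-C1, Tcrg-C2 and Tcrg-C3, 34.2%, 25.4% and 36.2% occur in another gene, and of those of Tcrg-C4 0%. The split between the first 3 is uncertain for the same reason as for the beta pair.
Tcrg-C1: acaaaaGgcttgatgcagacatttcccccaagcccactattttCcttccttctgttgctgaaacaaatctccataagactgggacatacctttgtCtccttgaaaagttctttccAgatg
Tcrg-C2: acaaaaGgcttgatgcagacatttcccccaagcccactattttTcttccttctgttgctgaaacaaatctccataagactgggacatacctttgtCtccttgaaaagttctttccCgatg
Tcrg-C3: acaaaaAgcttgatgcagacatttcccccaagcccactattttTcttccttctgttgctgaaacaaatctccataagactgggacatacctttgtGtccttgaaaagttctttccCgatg

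**Figure D3:**
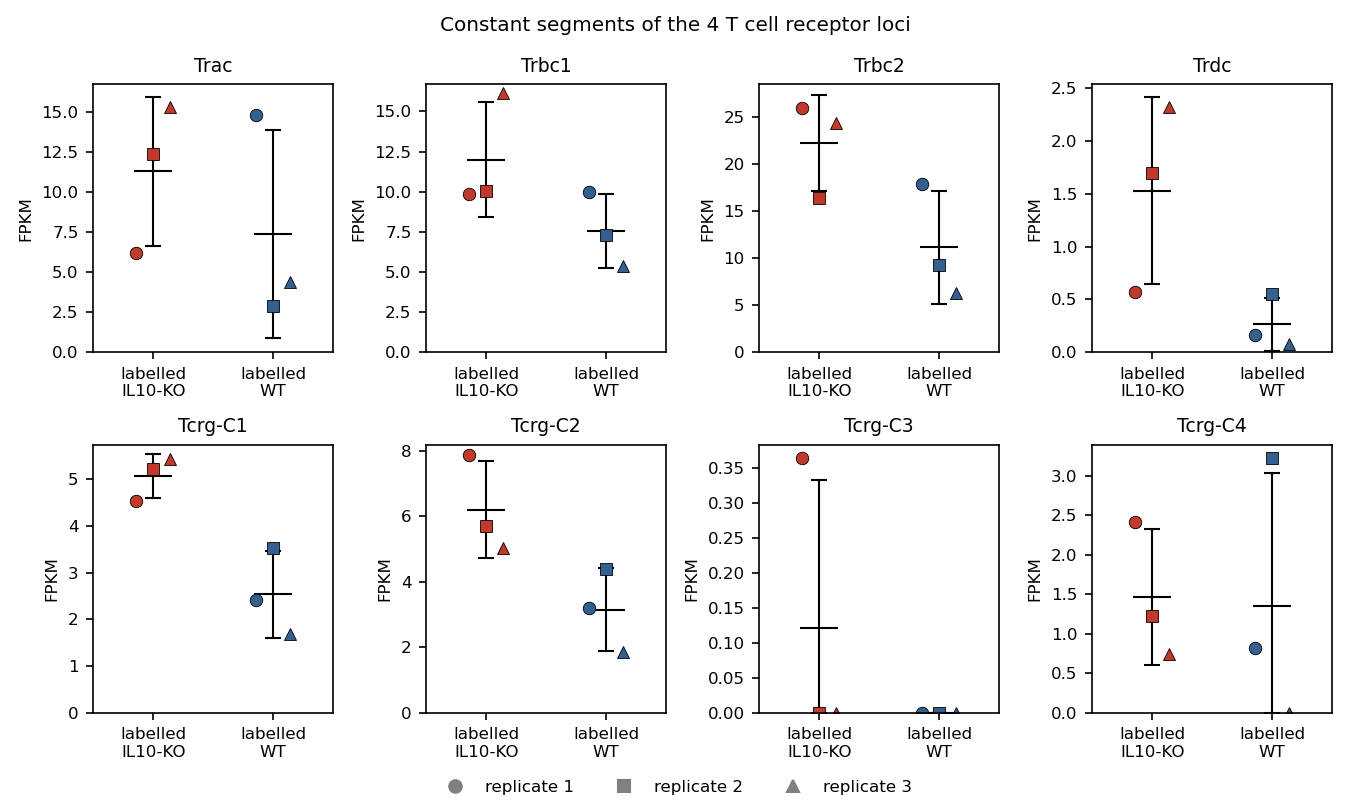
FPKM of the 8 constant segments in the 3 libraries labelled IL10-KO and the 3 labelled WT; symbols are libraries, long bars means and error bars 1 SD, drawn down to 0 at most, and each panel has its own axis. Trdc, Tcrg-C1 and Tcrg-C2 are apart between the groups, while WT library 1 reaches the IL10-KO range for Trac, Trbc1 and Trbc2 and WT library 2 exceeds it for Tcrg-C4.

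Summed over the 8 constant segments, levels were 57.8, 52.7 and 69.4 FPKM in IL10-KO libraries 1 to 3, against 49.3, 31.2 and 19.6 FPKM in WT libraries 1 to 3, with means of 60.0 ± 8.56 FPKM in IL10-KO and 33.4 ± 14.97 FPKM in WT (SD, n = 3 each). The signalling partners of the receptor, Cd3d, Cd3e and Cd3g, summed to 8.48, 7.40 and 9.21 FPKM in libraries labelled IL10-KO, against 7.88, 5.99 and 4.53 FPKM in those labelled WT, which overlapped. Per unit of this CD3 sum, the beta constant segments were at 4.22, 3.58 and 4.40 in IL10-KO and 3.54, 2.77 and 2.57 in WT, and did not overlap. Alpha, at 0.729, 1.67 and 1.67 in IL10-KO and 1.88, 0.487 and 0.969 in WT, overlapped. So did gamma, at 1.79, 1.64 and 1.22 in IL10-KO and 0.814, 1.86 and 0.781 in WT.

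Trdv4 was at 0.736, 0.968 and 0.435 per unit of the CD3 sum in the libraries labelled IL10-KO, against 0 in each of those labelled WT. Trdc was at 0.0677, 0.229 and 0.252 per unit of the CD3 sum in IL10-KO, against 0.0203, 0.0917 and 0.0177 in WT, and the ranges overlapped. The groups were thus apart for Trdv4 on this scale as in FPKM, and for Trdc they were apart in FPKM alone. For the beta constant segments they were apart on this scale and overlapped in FPKM.

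Variable segments other than Trdv4 were read so rarely that most differences in single segments were not detectable at this depth. Over all 144 V segments there were 64, 147 and 89 reads in IL10-KO libraries 1 to 3, against 53, 28 and 7 reads in WT libraries 1 to 3. At least 1 read fell on 16, 30 and 20 V segments in the libraries labelled IL10-KO, against 15, 12 and 2 in those labelled WT. Of the 49 V segments with a read in any library, 43 had one in IL10-KO, 22 in WT and 16 in both, and none had one in all 6 libraries. A segment read in 1 library may be missed in another by counting alone at these numbers.

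Trbv26 (ENSMUSG00000076479, GRCm38 chr6:41227505-41227993, plus strand) was the beta V segment with the most reads. It had 4, 14 and 6 reads in IL10-KO libraries 1 to 3, against 3, 0 and 0 reads in WT libraries 1 to 3 (0.863, 2.43 and 1.00 FPKM in IL10-KO, against 0.506, 0 and 0 FPKM in WT), and the groups did not overlap. With the filter set at 10 recovered reads its adjusted p was 0.410 (limma). Trbv1 had 2, 2 and 5 reads in the libraries labelled IL10-KO, against 13, 2 and 0 in those labelled WT. Its 13 reads in WT library 1 were the highest of any V segment in a library labelled WT.

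Trbv13-2 had 2, 7 and 2 reads in IL10-KO, against 3, 6 and 0 in WT, and Trbv2 had 0, 5 and 8 in IL10-KO, against 5, 0 and 0 in WT. Trbv15 had 0, 4 and 5 reads in IL10-KO, against 0, 0 and 1 in WT. All 3 overlapped between the groups.

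Among gamma V segments, Trgv2 had 3, 12 and 2 reads in the libraries labelled IL10-KO, against 0, 2 and 6 in those labelled WT. The gamma V7 segment Tcrg-V7, typical of intestinal intraepithelial gamma delta cells, had 0, 1 and 0 reads in IL10-KO, against 0, 4 and 0 in WT. The gamma V6 segment Tcrg-V6, a known partner of Trdv4, had 0, 1 and 3 reads in IL10-KO, against 0 in each WT library. It thus had 4 reads in all, where Trdv4 had 114.

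Of the other gamma V segments, Tcrg-V4 had 0, 4 and 0 reads in IL10-KO and 0, 1 and 0 in WT, Tcrg-V3 had 0, 4 and 0 in IL10-KO and 0 in WT, and Tcrg-V5 had 0, 1 and 0 in IL10-KO and 0 in WT. Tcrg-V1 had 0 reads in IL10-KO and 0, 3 and 0 in WT. IL10-KO library 2 and WT library 2 held most reads on gamma V segments of their groups.

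**Figure D4:**
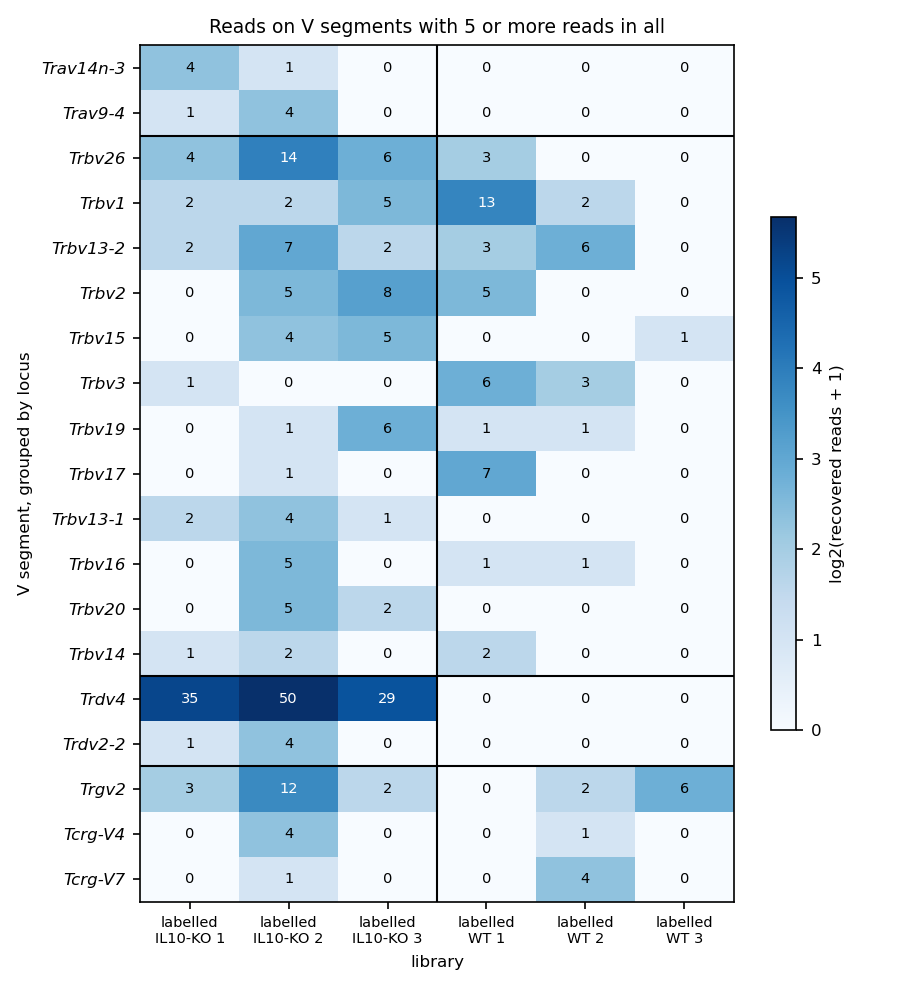
Recovered reads on the 19 V segments with 5 or more reads in all, grouped by locus, in the libraries labelled IL10-KO (left) and WT (right); each cell gives the read number, and shading is log2(reads + 1). The Trdv4 row, with 35, 50 and 29 reads in IL10-KO and 0 in WT, stands out from beta, gamma and alpha rows in which no cell exceeds 14 reads.

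Alpha V segments, the most numerous, had 10, 14 and 12 reads in all in the libraries labelled IL10-KO, against 9, 3 and 0 in those labelled WT. The most read were Trav14n-3, with 4, 1 and 0 reads in IL10-KO, and Trav9-4, with 1, 4 and 0 in IL10-KO, both with 0 in WT. Trav3-3, Trav7-4 and Trav7-5 had 4 reads each in all. Of the 108 alpha V segments, 100 share a 50-base stretch with another gene, at a median of 70.0% of their stretches, so that reads from this locus in particular may be spread over copies or dropped. The segments of invariant receptors, Trav11, Trav11d and Traj18 of natural killer T cells and Trav1 and Traj33 of mucosal-associated invariant T cells, had 0 reads in every library, which at this depth does not show that they were absent.

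Joining segments had 18 reads in all at alpha, 14 at beta, 2 at gamma (1 each on Trgj2 and Trgj4, in WT) and 0 at delta. Alpha J segments had 2, 13 and 0 reads in IL10-KO, against 3, 0 and 0 in WT, spread over 10 of 51 segments, with at most 3 reads on any (Traj3 with 3 in IL10-KO library 2, Traj7 with 3 in WT library 1). Traj19, Traj27 and Traj28 had 2 reads each, all in IL10-KO. Among beta J segments Trbj1-6 had 0, 1 and 0 reads in IL10-KO, against 0, 0 and 4 in WT, and Trbj1-2 had 3 reads, all in WT library 3. Trbj2-7 had 2 reads in IL10-KO and 2 in WT, and Trbj1-1 had 1 read in IL10-KO and 1 in WT.

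Because these segments are short, single reads give high FPKM. The beta D segments are shown for their length, and capitals are not used.
Trbd1: gggacagggggc
Trbd2: gggactgggggggc
Trbd1, with 12 bases and 1, 0 and 2 reads in IL10-KO against 0 in WT, was listed at 6.602, 0 and 10.2 FPKM in IL10-KO, and passed the filter on low values with 3 reads in all. Its log2 difference of 2.14 (adjusted p = 0.474) and that of Trbj1-6, -0.55 (adjusted p = 0.859, limma), rest on 3 and 5 reads.

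Counted by whether the groups overlap, 5 of the 12 segments with at least 20 reads lay above WT in all 3 IL10-KO libraries (Trdv4, Trbv26, Trdc, Tcrg-C2 and Tcrg-C1), 0 lay below and 7 overlapped (Trac, Trbc1, Trbc2, Tcrg-C4, Trbv1, Trbv13-2 and Trgv2). Over all 18417 genes with as many reads, 8.17% lay above and 9.63% below. Trdv4 and Trbv26 reached 20 reads only through the libraries labelled IL10-KO and had to lie higher there, so the count is not set against these shares as a result. Gamma and delta segments made up 4 of the 5 and 6 of the 12. The 5 were named here for this lack of overlap and are given as a description.

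No T cell marker passed the test. Of 9 tested T cell genes, 8 had a positive log2 difference, against 54.1% of all genes tested, and 1 had a negative one. Their median was 0.45. Summed levels of the 15 listed were 22.9 to 28.7 FPKM in IL10-KO and 13.5 to 30.3 FPKM in WT. Cd3d was at 3.67, 2.84 and 3.45 FPKM in IL10-KO, against 3.31, 2.75 and 3.28 FPKM in WT, and Cd3g at 3.61, 3.09 and 3.66 FPKM in IL10-KO, against 2.82, 2.25 and 0.734 FPKM in WT. The coreceptors Cd4, Cd8a and Cd8b1 summed to 6.47 to 6.96 FPKM in IL10-KO and 2.39 to 13.6 FPKM in WT, with WT library 1 the highest. Receptor and CD3 RNA were thus found in all 6 libraries, while genes of developing T cells were at or near 0. Of these, Rag1 and Ptcra were at 0 in all 6 libraries, Dntt was at 0, 0.1195 and 0.0288 FPKM in IL10-KO and 0 in WT, and Rag2 was at 0 in IL10-KO and at 0.0885 FPKM in WT library 2 alone.

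Of 14 genes listed for intraepithelial and gamma delta T cells, 10 were tested and none passed. Of these 10, 9 had a positive log2 difference, against 54.1% of all genes tested, and 1 had a negative one. An unadjusted limma p under 0.05 was reached by 3 of them, Il17a, Il7r and Fcer1g, and by 10.2% of all genes tested. The median log2 difference was 0.65. Il17a and Il7r averaged 0 and 0.341 FPKM in WT and passed the filter through the libraries labelled IL10-KO, so these counts are a description. The sums were 103 to 166 FPKM in IL10-KO and 47.5 to 124 FPKM in WT and overlapped. Fcer1g was their largest single part in every library, at 42.1, 83.8 and 86.4 FPKM in IL10-KO, against 43.7, 15.9 and 24.5 FPKM in WT. Il17a, the cytokine of the cells that use Trdv4 with gamma V6, was at 0.812, 4.34 and 2.04 FPKM in IL10-KO, against 0 in each WT library. Its log2 difference was 1.63 (standard error 0.42, adjusted p = 0.299, limma). Il17a passed the filter on low values only through the libraries labelled IL10-KO, so among tested genes it had to differ. Other T cells and innate lymphoid cells also make it.

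Cd163l1, a scavenger receptor known from interleukin 17 producing gamma delta cells, was at 0.411, 1.30 and 1.05 FPKM in IL10-KO, against 0.113, 0 and 0.321 FPKM in WT. The interleukin 23 receptor gene Il23r was at 0.127, 0.230 and 0.123 FPKM in IL10-KO, against 0.0498, 0.0304 and 0 FPKM in WT. Zbtb16, a transcription factor of innate-like T cells, was at 0.285, 0.818 and 0.940 FPKM in IL10-KO, against 0.199, 0.0430 and 0.146 FPKM in WT. These genes did not overlap between the groups, and were too low for the test.

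Genes typical of intestinal intraepithelial cells did not follow this order. Gzma was at 18.7, 34.8 and 17.5 FPKM in IL10-KO, against 19.2, 12.9 and 0 FPKM in WT, and Gzmb at 16.1, 20.8 and 13.2 FPKM in IL10-KO, against 34.5, 11.4 and 1.02 FPKM in WT. Itgae, an integrin that binds the epithelium, was at 1.19, 1.35 and 1.27 FPKM in IL10-KO, against 1.501, 0.678 and 0.507 FPKM in WT.

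Summed markers of some other cell types were also apart between the labels. Those of natural killer and innate lymphoid cells summed to 2.32 to 6.85 FPKM in IL10-KO and 0.481 to 1.42 FPKM in WT, in IL10-KO mostly Gata3 and Il1rl1, with the killer cell receptor gene Klre1 at 0.249, 0.255 and 0.246 FPKM in IL10-KO, against 0.0887, 0.0434 and 0.111 FPKM in WT. The natural killer cell genes Ncr1, Klrb1c and Klra8 were at 0 to 0.206 FPKM over the 6 libraries and Eomes at 0 to 0.313 FPKM, highest in WT library 1. Of 4 neutrophil genes, all were higher and 2, S100a8 and S100a9, passed, where 0.182% of all genes tested were called higher. The 4 neutrophil genes summed to 515 to 1542 FPKM in IL10-KO and 0.273 to 1.17 FPKM in WT. The sum of the 4 macrophage markers was also apart, at 95.7 to 163 FPKM in IL10-KO and 30.8 to 93.1 FPKM in WT, and none of them passed. Of the 4, only Cd14 was apart by itself, at 77.7, 124 and 94.7 FPKM in IL10-KO, against 63.5, 20.5 and 13.1 FPKM in WT. Cd68, Csf1r and Adgre1 overlapped, and Adgre1 had a log2 difference of -0.34. The 6 epithelial markers overlapped, at 4939 to 7821 FPKM in IL10-KO and 1235 to 8418 FPKM in WT. The part of any of these cell types in the receptor results was not tested.

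The genes whose levels ran most like the summed constant segments over the 6 libraries were, by Pearson's r of log2(FPKM + 1) among 12659 genes, Gm19366 (0.989), the antibody light chain segment Igkv1-110 (0.989), Lrrc26 (0.988), Vmp1 (0.984), Rplp1 (0.983) and Eif3h (0.980), followed by Gm4654, 2310034G01Rik, Gm7665 and Acy1. With 6 libraries that share tissue makeup and scaling, these values are a description.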

How the data were processed

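Colon RNA was extracted with Trizol and turned into libraries with an NEBNext Ultra kit, per the labels' protocols. Bowtie 0.12.2 and the builds hg38 and mm8 are named, without roles, in the submitters' processing notes. Which program counted reads, whether it used strand and what it did with reads that have several places is not given in the sources used here. The authors deposited 1 table of FPKM values with gene positions and biotypes, per the file headers, and all 226 segments have the positions of GENCODE M21 on GRCm38. In each library, FPKM multiplied by length came in whole steps (tolerance 0.01), and 1 step was taken as 1 read. An aligner that does not split reads would lose those across V-D-J junctions.

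Groups came from sample titles. No pair of libraries agreed within sampling noise (chi-square per gene 60.7 or more). Log2(FPKM + 1) was tested with limma 3.58.1 in R 4.3.3 (mean trend, no replicate block, Benjamini-Hochberg, threshold 0.05) for 12668 genes averaging at least 1 FPKM; voom on the recovered reads was an alternative only, because the table holds FPKM. Alternatives were pseudocounts of 0.1 and 0.01, other filters, rescaling to total reads, quantile normalization, TPM, voom, other eBayes settings, array weights, the replicate block and each library left out; voom on genes with at least 10 reads was chosen after seeing the data. Named segments are all C segments, the 5 V and 5 J segments per locus with the most reads (ties by name), called segments, segments of invariant or tissue-typed receptors, up to 5 per direction without overlap, and the 10 genes most like the summed C segments. The segments and lists were chosen with earlier results of these data known. The values of 1 listed marker are not reported here. Python 3.11.15 with numpy 2.4.6 and pandas 2.3.3 wrote the tables, and matplotlib 3.10.9 drew the figures.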

Additional observations from a re-analysis of the deposited data

Results flagged for a closer look

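Reads on a pseudogene segment outside the 226 differed between the labels. Of 44 T cell receptor pseudogene rows, 7 had a read, and Trbv25 (GRCm38 chr6:41221931-41222203, plus strand) held 32 reads in the libraries labelled IL10-KO against 3 in those labelled WT. Per library these were 10, 13 and 9 reads in IL10-KO, against 3, 0 and 0 reads in WT, or 2.90, 3.03 and 2.02 FPKM in IL10-KO, against 0.681, 0 and 0 FPKM in WT, and the groups did not overlap. The log2 difference was 1.61 (standard error 0.30, adjusted p = 0.1405, limma), which did not pass. Trbv25 ends 5302 bases before the start of Trbv26 on the same strand, and both had their WT reads in WT library 1 alone.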

How the results depend on the processing

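The number of genes called was 23. It was 9 with a pseudocount of 0.01, 4 with no filter, 40 after rescaling to total reads, 46 with TPM, 331 with weights per library, 41 with voom on genes with at least 10 reads and 4 to 29 when 1 library was left out. TPM moved the median log2 difference of all genes to 0.15, against 0.04. The number of segments called was 1. It was 0 with a pseudocount of 0.01, with no filter and with voom on recovered reads, 2 with weights per library, and 0 to 1 when 1 library was left out. Trdv4 stayed higher in all 20 alternatives and was called in 11, at adjusted p-values of 0.00443 to 0.169 (limma). With the replicate block 7 genes and 0 segments were called, with Trdv4 at 0.0760; same-numbered libraries correlated at -0.149, 0.180 and 0.396, so the numbers were not taken to pair them.

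The log2 ratio of the alpha sum (0.70) was 1.70 with medians and 0.32 to 1.73 with 1 library left out. That of the delta sum (3.09) was 2.66 to 4.22, and for delta V segments no ratio exists, since WT was at 0. Tcrg-C4 ranged from -0.23 to 0.81 and Trbj1-6 from -1.01 to 0.38 when 1 library was left out; with weights per library Trbj1-6 was at 0.21 and Trac at -0.0085. The cause of these changes was not tested. Of the 226 segments, 60 had 1 to 9 reads and 151 had none, so depth limits what can be said of them.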
